A study of Homo sapiens with 3 samples.

Results

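The genes described here act in mitosis, where most of them build the spindle or divide the cell at the end. They are ANLN, ECT2, PRC1, RACGAP1, CIT, MKI67, TPX2, ASPM, CEP55 and DLGAP5, 10 genes of the 27274 gene names on the array. They were chosen by name, every probe that the array design assigns to one of these names was used, and all 10 names were found. Of these genes, 6 were measured by 1 probe, ASPM, CEP55 and CIT by 2 probes each and MKI67 by 3 probes, which gave 15 probes of 60 bases. All cells were HepG2, an established human hepatocellular carcinoma line with wild-type p53, grown in RPMI 1640 with fetal bovine serum. Control cells received 0 μM etoposide, and the other cultures received 10 μM (the low dose) or 100 μM (the high dose), each for 30 h. Etoposide is an anticancer drug that traps topoisomerase II on DNA and leaves double-strand breaks. The labels call the control untreated, whereas the study's own table calls it DMSO.

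During mitosis, microtubules assemble around the chromosomes and from the poles into a spindle that pulls the sister chromatids apart. The microtubules left between the separated chromosomes are then bundled into the central spindle, which places the RhoA signal under the membrane at the cell equator. RhoA drives an actin and myosin ring that closes down to a thin bridge, the midbody, where membrane remodelling proteins cut the daughter cells apart. Genes specific to this work are mostly transcribed in G2 and M phase and are low in cells that have left the cycle. Many carry in their promoters a short element called the cell cycle genes homology region (CHR), which the DREAM and MuvB complexes bind, together with CCAAT boxes bound by NF-Y. DREAM represses such genes when p53 or quiescence turns the cycle off, whereas MuvB with B-MYB and FOXM1 activates them in G2.

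There was 1 array per condition, so no value has a replicate check, no test between doses is possible and no p-value is given. A difference between doses cannot be told apart from a difference between the 3 cultures, RNA preparations or arrays. In RNA from a whole culture, fewer cells that express a gene and less RNA of that gene per cell cannot be told apart. The unit is the scaled signal, which is the background-subtracted intensity of a probe set to the same 75th percentile on each array, so that control values equal those of the scanner. A gene was represented by its brightest probe. The error is the SD between spots of 1 array (log2 scale), combined over both arrays for a ratio, and it covers neither cultures nor RNA. Hepatocyte genes checked the labelled cell type, and all 12 of them were well above background on every array. Their median log2 ratio of the high dose over control cells was 0.43, with ALB (-0.52), AFP (-0.08) and APOH (0.05) the lowest and SERPINA1 (0.84) and TTR (1.11) the highest. Over 8 ways of scaling or background correction, this median was between 0.14 and 0.49. Of 8 markers of blood, endothelial, connective tissue and muscle cells, 5 were well above background on every array, and the summed signal of all 8 was 3089 at 0 μM, 9309 at 10 μM and 8479 at 100 μM. Most of that sum was ACTA2, an actin of smooth muscle that cultured cells also make, at 1908, 8384 and 6962. CD68, a lysosomal protein abundant in macrophages, was 2.81-fold higher at the high dose than in control cells (173, 229 and 486), and PTPRC, the CD45 antigen of blood cells, was 2.04-fold lower at the low dose (257, 126 and 342), a call that was lost under some scalings. PECAM1 (473, 285 and 339.8) and DES (260.2, 262 and 306) did not pass 2-fold. VWF was above background at the high dose alone (31.1), COL1A1 and COL3A1 were not above background on any array, and the part of other cells in the results below was not tested.

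The promoters show what these genes share in sequence. RefSeq promoters (GRCh38.p14), each running from 250 bases before the transcript start to 50 bases after it, were found for 8 of the 10 genes, and ECT2 had 2 of them. RACGAP1 and TPX2 had no entry. The letters searched on both strands were TTTGAA and TTTAAA for the CHR and CCAAT for the CCAAT box. Each sequence below is written 5′ to 3′ on the strand of its gene in lower case, with the matches in capitals (TTCAAA and ATTGG are matches on the other strand). PRC1 is shown for the simplest layout, ASPM for the most CCAAT boxes, DLGAP5 for the most CHR matches, MKI67 for neighbouring matches that share a base, ANLN for a promoter with a CHR and no CCAAT box, and ECT2 for a gene with a smaller fall.
PRC1, chr15:90994486-90994785 on the minus strand: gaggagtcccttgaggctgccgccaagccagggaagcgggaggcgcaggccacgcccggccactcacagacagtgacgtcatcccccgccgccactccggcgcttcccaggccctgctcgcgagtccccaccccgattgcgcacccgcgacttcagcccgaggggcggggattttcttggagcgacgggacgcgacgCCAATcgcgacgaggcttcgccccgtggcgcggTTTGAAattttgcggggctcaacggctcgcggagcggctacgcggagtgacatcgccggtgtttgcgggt
ASPM, chr1:197146620-197146919 on the minus strand: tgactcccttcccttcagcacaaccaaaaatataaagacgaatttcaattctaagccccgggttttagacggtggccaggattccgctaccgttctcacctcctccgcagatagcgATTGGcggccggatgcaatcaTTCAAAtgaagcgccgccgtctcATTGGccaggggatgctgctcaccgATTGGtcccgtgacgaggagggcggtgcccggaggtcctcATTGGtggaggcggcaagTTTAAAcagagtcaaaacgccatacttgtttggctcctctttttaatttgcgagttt
DLGAP5, chr14:55191536-55191835 on the minus strand: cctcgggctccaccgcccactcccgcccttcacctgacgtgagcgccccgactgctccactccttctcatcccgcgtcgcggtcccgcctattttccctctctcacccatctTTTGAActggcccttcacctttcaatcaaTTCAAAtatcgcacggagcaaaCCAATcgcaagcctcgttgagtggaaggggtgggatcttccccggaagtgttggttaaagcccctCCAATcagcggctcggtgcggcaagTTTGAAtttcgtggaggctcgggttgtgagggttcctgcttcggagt
MKI67, chr10:128126374-128126673 on the minus strand: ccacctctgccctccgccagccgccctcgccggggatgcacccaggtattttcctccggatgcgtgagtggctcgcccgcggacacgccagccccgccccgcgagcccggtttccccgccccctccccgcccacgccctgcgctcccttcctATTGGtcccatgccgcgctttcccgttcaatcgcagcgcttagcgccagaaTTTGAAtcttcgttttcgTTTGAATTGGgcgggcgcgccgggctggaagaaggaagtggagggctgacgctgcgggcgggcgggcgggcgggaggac
ANLN, chr7:36389612-36389911 on the plus strand: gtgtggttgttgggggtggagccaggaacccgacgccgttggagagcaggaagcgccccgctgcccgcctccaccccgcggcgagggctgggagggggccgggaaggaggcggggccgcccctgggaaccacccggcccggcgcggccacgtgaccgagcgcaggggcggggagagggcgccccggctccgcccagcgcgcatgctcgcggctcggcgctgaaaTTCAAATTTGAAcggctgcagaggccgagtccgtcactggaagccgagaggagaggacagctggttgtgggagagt
ECT2, chr3:172750476-172750775 on the plus strand: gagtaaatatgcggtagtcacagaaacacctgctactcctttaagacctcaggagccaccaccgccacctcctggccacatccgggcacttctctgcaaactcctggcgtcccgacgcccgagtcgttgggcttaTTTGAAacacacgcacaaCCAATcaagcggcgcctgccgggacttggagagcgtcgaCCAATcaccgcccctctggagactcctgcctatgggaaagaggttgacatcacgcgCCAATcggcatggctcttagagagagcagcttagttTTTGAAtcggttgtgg

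All 8 genes with a promoter held TTTGAA on 1 of the strands, and this held for 9 of 9 promoters, compared with 15.2% of all 35116 promoters in the table. A CCAAT box was found in 7 of the 9 promoters (7 of the 8 genes), compared with 34.6% of all promoters. A CHR in either form together with a CCAAT box was in 7 of the 9 promoters, against 9.27% of all, and 2 or more CCAAT boxes were in 5, against 10.8%. The second form TTTAAA was found in the ASPM promoter alone among the 9, against 12.2% of all. The median GC content was 63.3% in the 9 promoters and 58.7% over all promoters. These are matches of letters and not measured binding, and both ECT2 windows overlap, so that 1 of their TTTGAA matches is counted in each.

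**Figure D1:**
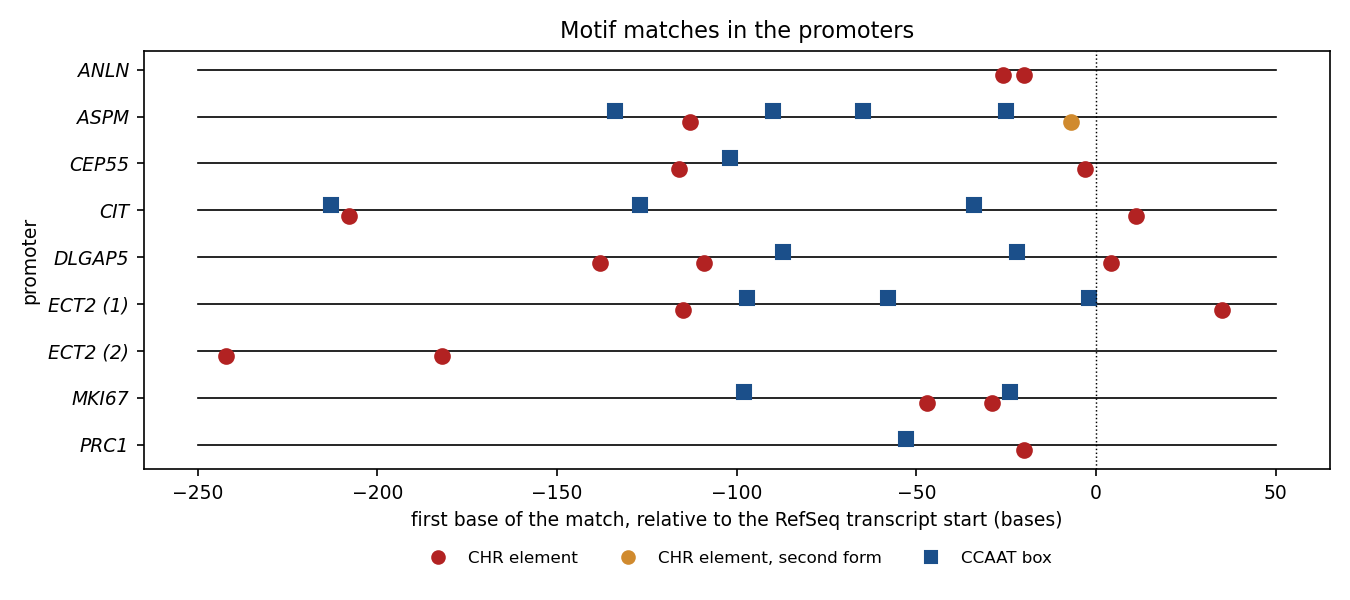
Matches of the CHR element and the CCAAT box in the 9 promoters of 8 genes. The x axis gives the first base of each match in bases from the RefSeq transcript start (dotted line), squares are CCAAT boxes and circles are CHR elements, and every promoter holds at least 1 circle while ANLN and the second ECT2 promoter hold no square.

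In the PRC1 promoter, the CCAAT box began at position -53 and the CHR at position -20, where -1 is the last base before the start. In MKI67, a CHR at -29 ran into a CCAAT box on the other strand at -24, and a second pair lay further apart, with the CCAAT box at -98 and the CHR at -47. ANLN held TTTGAA on both strands side by side, at -26 and -20. ASPM had its 4 CCAAT boxes between -134 and -25, with a TTTGAA match at -113 and TTTAAA at -7. DLGAP5 had CHR matches at -138, -109 and 4. The 3 CCAAT boxes in the first ECT2 promoter were at -97, -58 and -2. The 8 genes searched thus shared TTTGAA, and 7 of them also held a CCAAT box. The matches differed in number, order and distance.

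To examine how these genes responded to the doses, the high dose was first compared with control cells. All 10 genes were more than 2-fold lower at the high dose, 1 of them as a bound, whereas 617 of the 16893 genes measured in this comparison (3.65%) were. Their median log2 ratio was -2.70, which is 6.51-fold lower, with a range from -2.91 to -2.00, while the median over all genes measured was 0.09. Over the 9 genes that were above background on every array, which leaves out ANLN, the median was -2.73. The median was 4.25-fold lower with normexp background correction, which adds an offset and draws dim signals together. Of the 15178 genes well above background on every array, the middle 90% lay between -0.83 and 0.98, so that all 10 genes were below that range. Of these 15178 genes, 41 (0.270%) were lower than the median of the 9, and 27 were lower than every one of them.

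**Figure D2:**
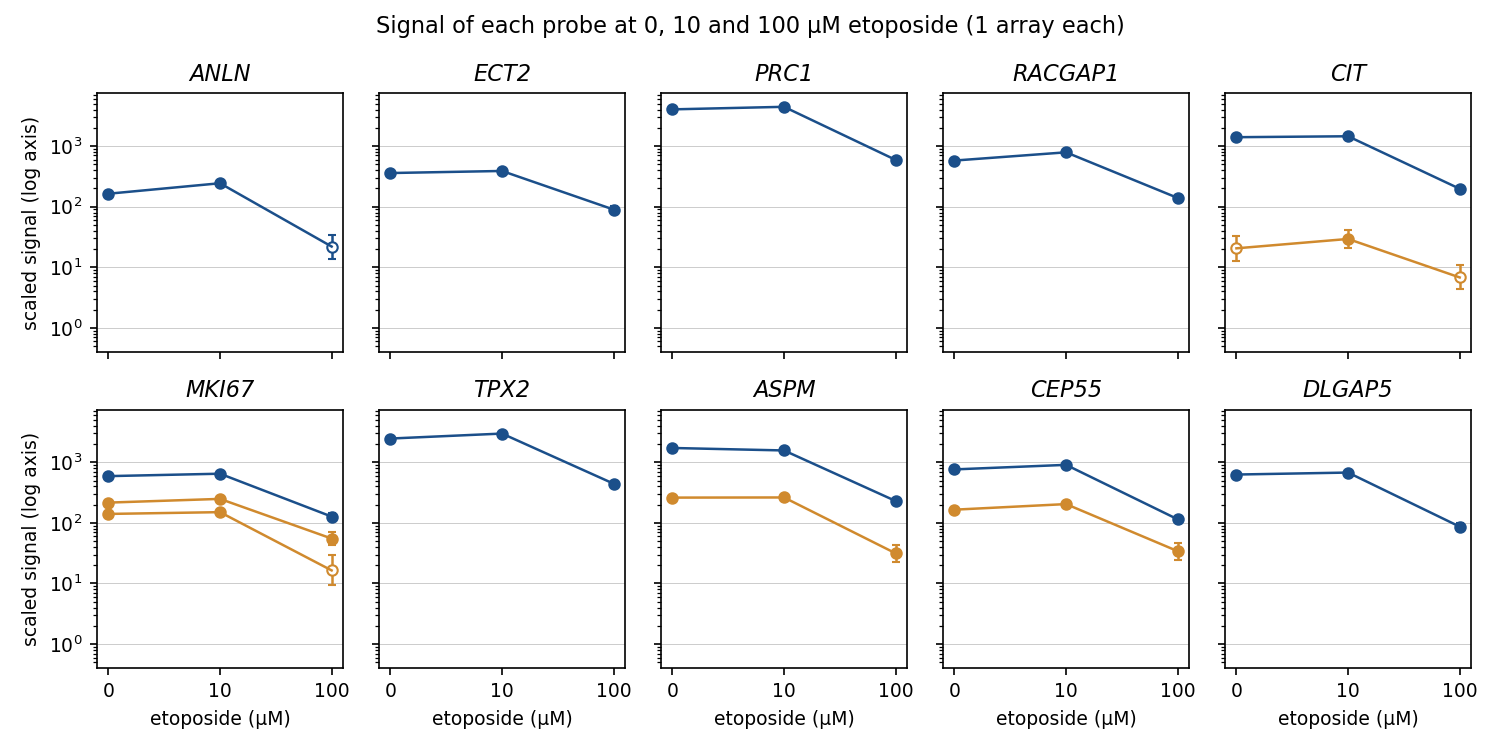
Scaled signal (log axis) of every probe of the 10 genes at 0, 10 and 100 μM etoposide, 1 array each. Blue is the brightest probe of a gene and orange its other probes, open circles are not well above background, and bars are 2 SD between spots of 1 array; all lines change by less than 2-fold from 0 to 10 μM and drop at 100 μM.

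The central spindle and RhoA genes come first. PRC1, which crosslinks antiparallel microtubules into the central spindle, had a signal of 4034 at 0 μM, 4445 at 10 μM and 592 at 100 μM (NM_003981, probe at chr15:89310430-89310489, with all probe positions as in the deposited files, on hg18). The high dose was thus 6.82-fold lower than control cells (log2 ratio -2.77, spot SD 0.07), and the low dose was 1.10-fold higher (0.14, spot SD 0.06). Low dose and control stood close together and the high dose apart from both.

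RACGAP1 forms centralspindlin with the kinesin KIF23 and recruits ECT2 to the central spindle. Its signal was 577 at 0 μM, 789 at 10 μM and 139 at 100 μM (NM_013277, chr12:48669281-48669340). It was 4.14-fold lower at the high dose than in control cells (-2.05, spot SD 0.10) and 1.37-fold higher at the low dose (0.45, spot SD 0.07). The low dose was the highest of the 3 conditions by more than the error between spots. ECT2, the exchange factor that loads RhoA with GTP at the equator, had 359 at 0 μM, 389 at 10 μM and 89.6 at 100 μM (NM_018098, chr3:174021024-174021083). Its log2 ratio at the high dose was -2.00 (4.01-fold lower, spot SD 0.11), the smallest fall among the 10 genes under this scaling, and 2.63-fold lower with normexp. At the low dose its ratio of 0.11 was within 2 spot SD of 0.

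ANLN encodes anillin, the scaffold that ties actin, myosin, septins and RhoA together in the contractile ring. It measured 164 at 0 μM, 244 at 10 μM and 22.0 at 100 μM, the last of which was not well above background (NM_018685, chr7:36459112-36459171). The fall is therefore a bound, at least 6.37-fold against control cells and at least 9.48-fold against the low dose, taken against a floor of 25.7 on the scaled unit. These bounds depend on the background correction, since with normexp the falls were 2.06-fold and 2.79-fold. ANLN also had the highest low dose ratio among the 10 genes, 1.49-fold over control cells (0.57, spot SD 0.10), and 9.28% of all genes measured were higher.

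CIT, citron kinase, is a partner of RhoA that organizes the midbody. Its brightest probe gave 1402 at 0 μM, 1452 at 10 μM and 197 at 100 μM (NM_007174, chr12:118608014-118608073). It was 7.10-fold lower at the high dose (-2.83, spot SD 0.08), whereas the low dose ratio of 0.05 was within 2 spot SD of 0. A second CIT probe (chr12:118610028-118610087) was above background at the low dose alone, at 29.4, against 20.6 in control cells and 6.81 at the high dose. It gave no ratio between the high dose and control cells, and its low dose bound over the high dose was at least 1.14-fold.

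CEP55 sits in the midbody and recruits the membrane cutting machinery for abscission. One of its probes was printed 10 times on each array, which gives a direct view of the error between spots (NM_018131, chr10:95278744-95278803). Over all 10 spots, the signal ranged from 712 to 798 at 0 μM, from 885 to 921 at 10 μM and from 105 to 127 at 100 μM. None of these ranges overlapped, although spots marked as outliers were not removed from them. For the means, outliers were left out, which kept 8, 9 and 10 spots in the same order. The means were 763, 906 and 115, which is 6.66-fold lower at the high dose (-2.73, spot SD of the mean 0.03) and 1.19-fold higher at the low dose (0.25, spot SD of the mean 0.02). The second CEP55 probe, at chr10:95269468-95269527, read 165, 204 and 34.2 in the same order, 4.83-fold lower at the high dose (-2.27, spot SD 0.24).

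The genes of the spindle itself follow. TPX2, which activates Aurora A and starts microtubules near the chromosomes, had 2463 at 0 μM, 2975 at 10 μM and 443 at 100 μM (NM_012112, chr20:29852634-29852693). The high dose was 5.56-fold lower than control cells (-2.48, spot SD 0.08) and the low dose 1.21-fold higher (0.27, spot SD 0.06). The high dose array was far below the others for this gene.

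ASPM, a protein of microtubule minus ends at the spindle poles, had 1721 at 0 μM, 1567 at 10 μM and 229.5 at 100 μM (NM_018136, chr1:195320077-195320136). It was 7.50-fold lower at the high dose (-2.91, spot SD 0.08). This was the largest measured fall among the 9 genes above background on every array under this scaling, while with normexp PRC1 fell more (-2.68 against -2.60). ANLN, a bound, may have fallen further, but with normexp its fall was the smallest of the 10 genes (-1.04). ASPM was also the gene with a low dose ratio below 0 (-0.14, spot SD 0.06), while its second probe (chr1:195324022-195324081) gave 0.01 there and -3.05 at the high dose. That second probe read 261, 263 and 31.5, level between control cells and the low dose. DLGAP5, also called HURP, stabilizes the microtubules that hold kinetochores. Its signal was 628 at 0 μM, 676 at 10 μM and 86.7 at 100 μM (NM_014750, chr14:54684866-54684925), 7.24-fold lower at the high dose (-2.86, spot SD 0.12; 4.02-fold with normexp) and within 2 spot SD of control cells at the low dose (0.11, spot SD 0.07).

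MKI67 encodes Ki-67, the protein that coats mitotic chromosomes and is the common stain for cycling cells. Its brightest probe read 591 at 0 μM, 648 at 10 μM and 127 at 100 μM (NM_002417, chr10:129797570-129797629), 4.65-fold lower at the high dose (-2.22, spot SD 0.10). The low dose ratio was 0.13, within 2 spot SD of 0. A probe that the design assigns to the first transcript variant alone (chr10:129803183-129803242) read 216, 249 and 55.1, with log2 ratios of -1.97 at the high dose and 0.20 at the low dose. The remaining MKI67 probe (chr10:129785631-129785690) read 141, 150.4 and 16.4, the last not well above background, for a fall of at least 5.46-fold. The 3 MKI67 probes thus went the same way, and their ratios did not differ by more than 2 spot SD from that of the brightest.

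**Figure D3:**
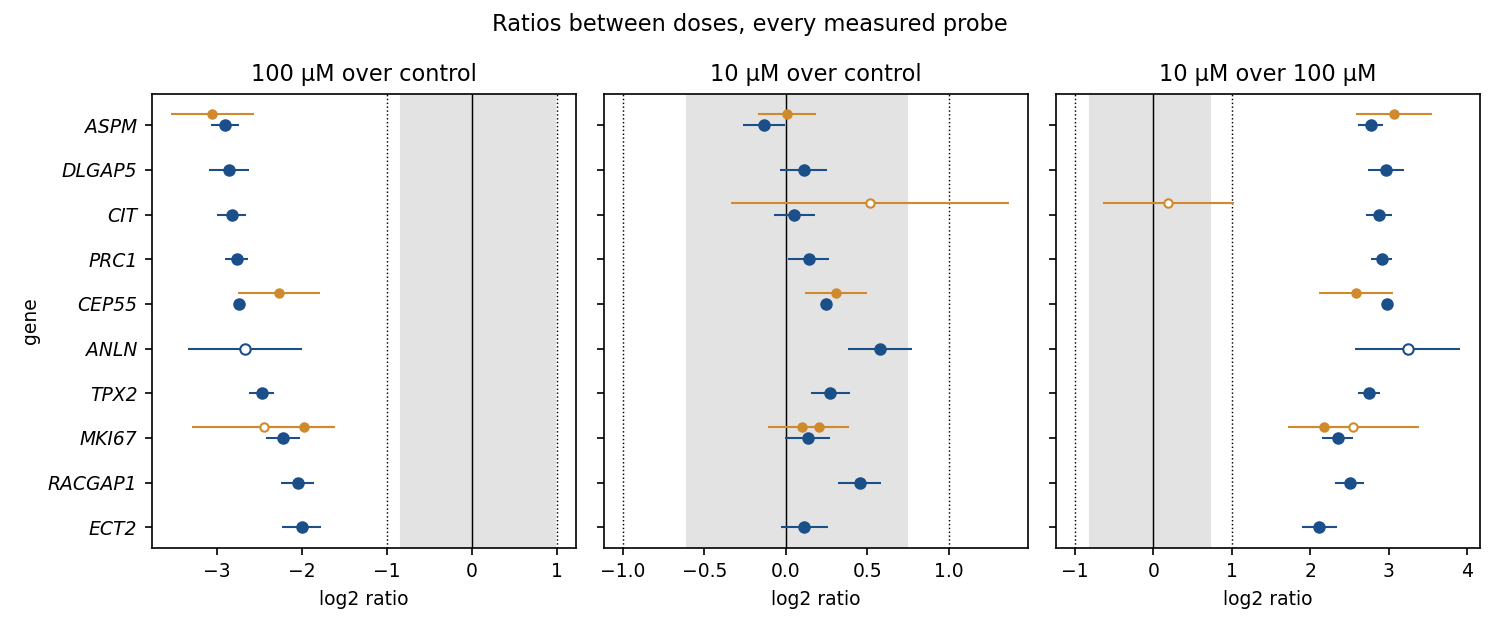
Log2 ratios of every measured probe of the 10 genes in the 3 comparisons, genes ordered by the high dose ratio. Blue is the brightest probe and orange the others, open circles are bounds, bars are 2 SD between spots, the grey band holds the middle 90% of genes well above background on every array and dotted lines mark 2-fold; all 10 blue points lie outside the band in the comparisons with the high dose and inside it at 10 μM over control.

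The low dose was next compared with control cells. None of the 10 genes was more than 2-fold lower, where 1.57% of the 16699 genes measured were, and none was more than 2-fold higher, where 3.37% were. The median log2 ratio was 0.14 (1.10-fold), with 9 genes above 0 and ASPM below it, and the median over all genes measured was -0.04. Of all single genes measured, 31.6% were higher than this median, and how often a median of 10 genes is that high was not tested. The ratios of 6 genes differed from 0 by more than 2 spot SD, namely PRC1, TPX2, CEP55, RACGAP1 and ANLN above it and ASPM below it. Over 8 ways of scaling or background correction, between 5 and 8 genes did so. ANLN, CEP55, RACGAP1 and TPX2 were the 4 that did in every case, whereas ASPM was within 2 spot SD of 0 without scaling and with spike-in controls, and PRC1 was with median scaling and with normexp. The direction of each gene held in all 8, while the second ASPM probe gave a ratio close to 0.

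Between the doses, the low dose exceeded the high dose more than 2-fold in all 10 genes, 1 of them as a bound, where 611 of 16733 genes (3.65%) did. The median log2 ratio of the low over the high dose was 2.82 (7.08-fold), with a range from 2.12 for ECT2 to at least 3.25 for ANLN. The highest measured ratio was that of CEP55, and 40 of the 15178 genes above background on every array were higher. With normexp the ratio of PRC1 (2.79) was above that of CEP55 (2.35). The comparisons share arrays, so this ratio is not separate evidence from the other ratios. For PRC1 it was 2.91 (7.51-fold), for CEP55 2.98 (7.91-fold) and for MKI67 2.35 (5.10-fold).

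The order of the 9 genes above background on every array, from the lowest ratio at the high dose, was ASPM, DLGAP5, CIT, PRC1, CEP55, TPX2, MKI67, RACGAP1 and ECT2. The place of ANLN cannot be given, since its value is a bound. Of the 8 pairs of neighbours in this order, 2 differed by more than 2 spot SD, CEP55 and TPX2 (0.26, spot SD of the difference 0.08) and TPX2 and MKI67 (0.26, spot SD of the difference 0.13). TPX2 also differed by more than 2 spot SD from each of the other genes in the order. The order depends on the background correction and the probe. With normexp, PRC1 (-2.68) was lowest, and TPX2 (-2.35) was below CEP55 (-2.17) and DLGAP5 (-2.01). The second CEP55 probe (-2.27) was above TPX2 (-2.48) without normexp. Neighbours from ASPM to CEP55, and from MKI67 to ECT2, did not differ beyond the error between spots. The ends of the order stood apart, with ASPM 0.90 below ECT2 (spot SD of the difference 0.14). Counted from the lowest of the 15178 genes, ASPM was at place 28, DLGAP5 at 33, CIT at 35, PRC1 at 39 and CEP55 at 42. TPX2 followed at 66, MKI67 at 103, RACGAP1 at 128 and ECT2 at 135. At the low dose the order was another, with ASPM lowest and RACGAP1 and ANLN highest, and ASPM was 0.71 below ANLN (spot SD of the difference 0.12).

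**Figure D4:**
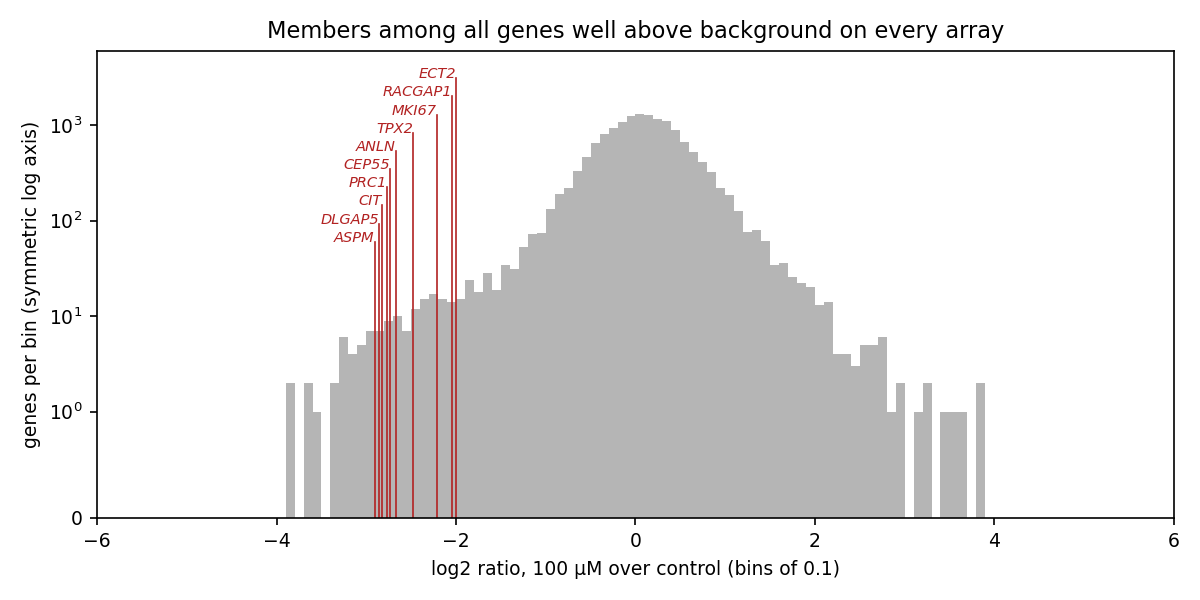
Log2 ratio of the high dose over control cells for the 15178 genes well above background on every array, in bins of 0.1 with the number of genes on a symmetric log axis. Red lines mark the 10 genes (their heights only separate the names, and ANLN is a bound); they lie from -2.91 to -2.00, in the thin left tail.

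Genes with related work gave a wider view. In the central spindle and chromosome passenger genes, 10 of 10 were more than 2-fold lower at the high dose, 1 as a bound, with a median log2 ratio of -2.61. The lowest of those above background at both doses were KIF4A, a kinesin that limits the length of central spindle microtubules (-3.67, from 810 to 63.8), BIRC5, the survivin subunit of the passenger complex (-3.61, from 16560.1 to 1359.7), and PLK1, the kinase that prepares RACGAP1 to bind ECT2 (-3.28, from 1111 to 115). AURKB, the kinase of the passenger complex, read 229.6 in control cells and 20.4 at the high dose, not well above background, and its bound of -3.16 leaves its place unknown. INCENP, the scaffold of the passenger complex, was the highest at -1.30 and KIF20B was at -1.77. At the low dose, no gene of this list passed 2-fold and the median was -0.01. There PLK1 (-0.72), BIRC5 (-0.50) and KIF20A (-0.26) had ratios below every one of the 10 spindle and cytokinesis genes.

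In the list of spindle assembly and pole genes, 14 of 20 were more than 2-fold lower at the high dose, 2 as bounds, and none was higher, with a median of -2.00. The kinesins KIF15 (-3.54) and KIF11 (-3.00), which push the poles apart, and HMMR (-3.04) were the lowest of those above background at both doses. KIF18A, a kinesin that limits chromosome movement, read 154 in control cells and 8.18 at the high dose, and its bound of -2.58 leaves its place unknown, as does that of CKAP2L (-2.50). NUMA1, which focuses microtubules at the poles (-0.12), and CLASP1, which stabilizes microtubule ends in cells at all stages (0.04), were the highest. No gene of this list passed 2-fold at the low dose, and its median there was 0.07. AURKA (-0.57), BORA (-0.31), NEDD1 (-0.29), KIF15 (-0.27), HMMR (-0.17) and CLASP1 (-0.16) were below ASPM there (-0.14), the lowest of the spindle and cytokinesis genes. The other genes of the list were above ASPM. Augmin, the complex that branches new microtubules from old ones, had a smaller fall. Of its 7 genes measured out of 8, 5 were more than 2-fold lower at the high dose with a median of -1.21, and the lowest were HAUS8 (-1.41), HAUS6 (-1.35) and HAUS7 (-1.30). HAUS2 (-0.28) and HAUS5 (-0.20) did not pass 2-fold.

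The general machinery that spindle and cytokinesis genes work on was also listed. Over all genes measured, 3.65% were more than 2-fold lower and 6.75% more than 2-fold higher at the high dose, so few calls in lists of this size are close to that share. In the contractile ring list of RhoA, its kinases, formins, myosins, septins and actin binding proteins, 1 of 17 genes was more than 2-fold lower at the high dose. That gene was DIAPH3, a formin (-2.87, with 420.4 at 0 μM, 545 at 10 μM and 57.6 at 100 μM). ROCK2 (-0.63) and SEPT11 (-0.40) followed, CFL1 (0.32) and MYL12B (0.33) were the highest, and the list median was -0.04. Of 16 genes of the abscission machinery, which includes the ESCRT proteins that CEP55 brings to the midbody, none passed 2-fold in either direction. Their high dose ratios ran from -0.58 for CHMP4C, -0.50 for SPAST and -0.33 for CHMP1B to 0.53 for CHMP4B and 0.57 for ZFYVE19, with a median of 0.17. Over the 8 ways of scaling the arrays, the median was between -0.32 and 0.03 for the contractile ring and between -0.12 and 0.23 for abscission, so its sign depended on the scaling.

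Of 12 tubulin genes, none passed 2-fold at the high dose against control cells, while over the 8 ways of scaling 0 to 2 were called lower and 0 to 1 higher. TUBA1B (-0.81), TUBA1A (-0.72) and TUBA1C (-0.53) were the lowest and TUBB6 (0.87) and TUBB2A (0.97) the highest, with a median of 0.21 that was between -0.07 and 0.27 over the 8 ways of scaling. At the low dose the tubulin median was 0.69. Of all genes measured, 3.37% were more than 2-fold higher there than in control cells, and 2 of the 12 tubulin genes were (2 to 3 over the scalings). These were TUBB6 (1.86, from 6648 to 24186) and TUBB2A (1.08, from 15775 to 33348). The genes are near-identical in parts of their sequence, so a probe may read more than 1 of them. The 10 housekeeping genes had a high dose median of -0.10 with none past 2-fold. The lowest were HPRT1 (-0.96), called lower under 3 of the 8 scalings, PPIA (-0.32) and RPLP0 (-0.32), and the highest was YWHAZ (0.20).

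**Figure D5:**
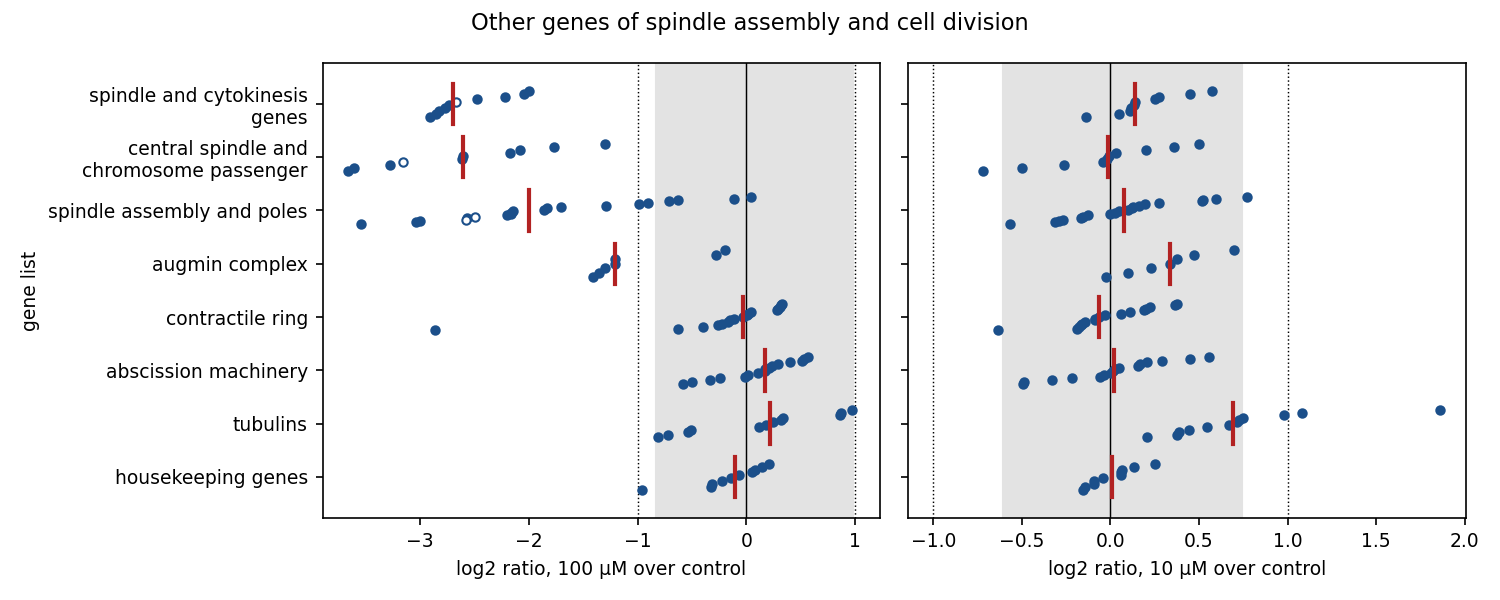
Log2 ratios of single genes (points, open for bounds) in 8 gene lists, at 100 μM over control (left) and 10 μM over control (right). Red bars are list medians, the grey band holds the middle 90% of genes well above background on every array and dotted lines mark 2-fold; the upper 4 lists reach below the band at the high dose, whereas most points of the lower 4 lie within it, with DIAPH3 of the contractile ring far to the left.

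Finally, the genes with the most similar pattern were sought among 15169 other genes well above background on every array, by the distance of their pair of log2 ratios over control cells (low dose, high dose) from the median pair of the 10 genes (0.14, -2.70). The nearest 8 were CDC25C (0.16, -2.84), KIF2C (0.27, -2.63), TOP2A (0.20, -2.54), VRK1 (0.23, -2.55), KIF14 (-0.02, -2.61), SGOL1 (0.12, -2.51), CCNA2 (0.07, -2.89) and CDCA8 (-0.04, -2.61). CDC25C is the phosphatase that starts mitosis, CCNA2 is cyclin A2, and KIF2C takes microtubules apart at centromeres. TOP2A is the enzyme that etoposide traps, SGOL1 guards the cohesion of sister chromatids and CDCA8 is the borealin subunit of the passenger complex. The distances ran from 0.137 for CDC25C to 0.199 for CDCA8, over only 2 ratios from 3 arrays.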

How the data were processed

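RNA was measured in 3 samples of HepG2 cells, 1 per dose of etoposide. After amplification, the Cy3-labeled RNA was put on 1-color Agilent arrays of the whole genome, all on 1 slide. The authors deposited the scanner output of Feature Extraction 10.7.3.1 (default parameters), in which the intensity of each spot is background-subtracted, on a linear scale and not scaled between arrays. Their table of the series held the same intensity (to a relative difference under 1e-06) at all 44495 spots of each array. No depth applies to an array, and precision is limited by 1 array per condition. Between 19835 and 20150 of the 34118 probes used were well above background, and no spot outside the array's own control probes was saturated.

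Spots that the software marked as outliers were left out, log2 intensity was averaged per probe, and the 75th percentile over probes was subtracted on each array (514, 537 and 433 in signal at 0, 10 and 100 μM). A ratio needed the brighter side well above background. A dimmer side that was not took the lowest well measured signal of its array in its place (19.5, 22.7 and 21.6 before scaling, which is 19.5, 21.7 and 25.7 on the scaled unit), and the ratio is then a bound. Calls used 2-fold in all comparisons, the study's threshold between doses (against control it used 3-fold, given here as an alternative). The error between spots came from the 50 repeated probes nearest in signal. For a probe printed 10 times, it came from its own spots, as the SD of their mean. For a ratio, the errors of both arrays were combined. Groups followed the dose in the labels. The members and the gene lists were chosen with earlier results of these data known. Named genes were all members, the 3 lowest and 2 highest of each list at the high dose among those above background in both conditions, and the 8 genes nearest in pattern, and others are named where a sentence turns on them. A gene that this rule selects is not reported here. The steps were tested on simulated arrays. These were built from the control array with its error between spots, so they held no variation between cultures or RNA preparations. Python 3.11.15, numpy 2.4.6, pandas 2.3.3, matplotlib 3.10.9, R 4.3.3 and limma 3.58.1 were used. The alternatives were other scalings, normexp (offset 50), stricter and looser handling of dim probes, other rules for genes with several probes, the series table and other fold thresholds.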

Additional observations from a re-analysis of the deposited data

How the results depend on the processing

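No paired analysis was possible because each dose had 1 array. For the same reason no replicate could be left out, and a slide block could not be fitted with 1 slide in all. All 10 genes stayed more than 2-fold lower at the high dose under every alternative except the restriction to genes well above background on every array, which leaves out ANLN and gave 9. In the low over high dose comparison that restriction also gave 9, as did the probe with the smallest change, because of the dim CIT probe. The counts were 10 at 1.5-fold, 3-fold and 4-fold, and no gene passed 2-fold at the low dose under any alternative. The median log2 ratio of the high dose over control (-2.70) was -2.95 without scaling, -2.99 with median scaling, -2.87 with the 7 spike-in controls, -2.09 with normexp, -2.59 with the median over probes and -2.57 with the probe of smallest change. The median of the low over the high dose (2.82) was 3.13 without scaling, 3.09 with median scaling, 3.05 with spike-in controls, 2.23 with normexp and 2.66 with the probe of smallest change. The low dose median (0.14) was 0.21 with the median over probes. Of 357 values of single genes, 103 moved by more than the spot SD and 0 reversed, while ASPM changed sign at the low dose with its second probe. The median over all probes well above background at the high dose was 0.07, and it was -0.17 without scaling, -0.21 with median scaling and -0.09 with spike-in controls. Of all calls at the high dose, 64.9% were higher, against 37.2%, 33.2% and 45.1% under those scalings, 49.8% with quantile normalization, 47.6% with normexp and 75.5% without a filter. The share of all genes called lower was then 6.31%, 6.96% and 5.39%, and 2.54% with normexp. The causes were not tested. Signals near background, as for ANLN at the high dose, limit a fall to a bound.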
